A study of Rattus norvegicus with 4 samples.

Results

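DNA repair genes were followed in footpad skin of irradiated rats through 73 of the 18957 rows counted in the study. Members were the rows whose gene symbol begins with or equals a name of the classical repair families: Rad, Xrcc, Fanc, Brca, Msh, Mlh, Ercc, Rpa, Rfc, the repair and replication polymerases and ligases, and single enzymes such as Apex1, Ung and Xpc. The rule used symbols alone and no measured value. Skin came from the hindlimb footpad of Sprague Dawley rats, an outbred stock, on days 0, 3, 6 and 9. By the protocol, 10 Gy of 9 MeV electrons was given on each of days 1, 2, 4 and 5, so the day 3 library followed 2 irradiations and those of days 6 and 9 followed 4. Each day is 1 library, the day 0 library being the only one from before irradiation, and the labels name no animal, pool, sex or age. The sample descriptions differ from this protocol, naming day 1 as the collection day of the day 0 sample and a single irradiation day for each later sample. The groups here follow the sample titles.

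Repair genes fall into pathways that each answer a kind of lesion. Base excision repair removes single damaged bases, nucleotide excision repair cuts out bulky lesions, and mismatch repair corrects errors left by the polymerase. Double-strand breaks, the lesion for which ionizing radiation is best known, are joined end to end through the Ku proteins or copied from the sister chromatid by homologous recombination. The replication clamp loader, replication protein A and the replicative polymerases serve both these pathways and ordinary replication, so their transcripts are abundant in dividing cells, which in epidermis sit mainly in the basal layer.

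Transcripts were counted through tags of 21 bases that start at a CATG site near the 3' end, so a count is the copies of a gene's tags and does not scale with transcript length. Of the 10 members that later passed a rule of size, 9 are shown here, and they are counted mainly through the tags below, printed because each change described rests on them. CATG is in capitals, the tags run 5' to 3' as deposited, and each is the most abundant tag of its gene.
Ung: CATGggtggttggtgagtcct
Tdg: CATGgtgagtagtgagtgctg
Pold2: CATGaatttttaccatctgaa
Pole3: CATGaggctgacaggtaatgt
Rfc2: CATGgtgggaaagctttgacc
Rfc4: CATGattcaatcatagaagat
Fance: CATGtgtgtgttgtgaccccc
Xrcc6: CATGgagtgctgccctcccac
Xrcc6bp1: CATGccgattttagcgtttgc
The tag of Pole3 lies at the third CATG site from the 3' end and the others at the first. Ung, Rfc2, Fance, Xrcc6 and Xrcc6bp1 were seen through 1 tag alone.

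The libraries held between 1952921 and 1982608 gene counts. Of the 73 members, 25 reached 50 counts in a library, 48 stayed under 50 in all of them and 17 of these stayed under 10. Members in the low range can show only large differences. A ratio compares TMM-scaled counts of 2 libraries, and its 95% Clopper-Pearson interval, given in brackets, covers counting error only. With 1 library a day there is no spread between animals and no test across samples. A gene passed the size rule if the ratio was at least 2, the higher library had at least 50 counts and the interval left out 1.

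Summed over all 73 members, repair transcripts were at 1687, 1302, 1657 and 1208 scaled CPM (counts brought to a common library size) on days 0, 3, 6 and 9. The sum was lower on days 3 and 9 and close to day 0 on day 6. Day 3 over day 0 gave a ratio of 0.772 (0.733 to 0.812), day 6 over day 0 gave 0.982 (0.936 to 1.03), and day 9 over day 0 gave 0.716 (0.679 to 0.756). In bulk skin, fewer cells of a type and less RNA per cell cannot be told apart. The sum of 16 proliferation genes, among them Mki67, Cdk1, the helicase subunits Mcm2 to Mcm7 and Stmn1, was lower on days 3 and 9. It had wider swings than the repair sum, at 485, 219, 605 and 280 CPM. This proliferation sum was above day 0 on day 6, which the repair sum was not. Single genes of the list did not all follow it, among them Mcm4 and Mcm7. Whether the share of dividing cells plays a part in the repair sums was not tested.

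**Figure D1:**
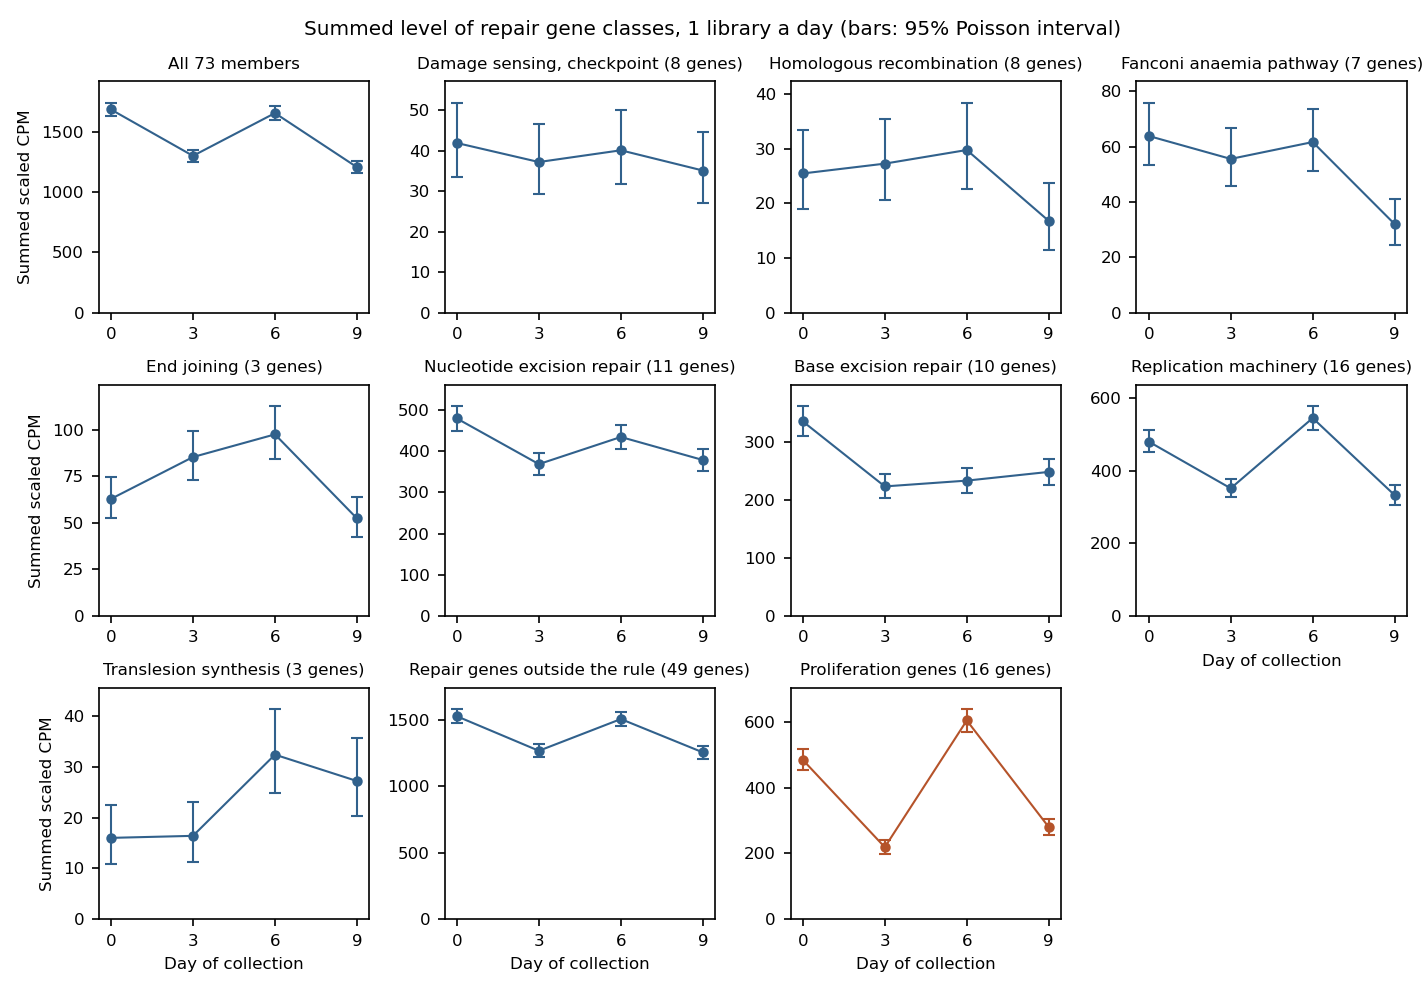
Summed scaled CPM (y axis, from 0, a separate scale for each panel) against day of collection for all 73 members, 8 repair classes, the 49 repair genes outside the rule and 16 proliferation genes (orange). Points are single libraries and bars are 95% Poisson intervals of the summed count; the sum of all members reads 1687, 1302, 1657 and 1208 CPM on days 0, 3, 6 and 9, and base excision repair stays at 223 to 248 CPM after its day 0 value of 335.

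Markers of other cell types also differed between the libraries. The skin label was checked against keratinocyte markers: Krt1, Krt10, Krt14 and Tp63, the 4 of 8 listed keratinocyte markers with a row, were counted on all days and summed to 14300 to 25330 CPM, highest on day 6. The 6 dermal markers, collagens and Sparc among them, summed to 52158, 40019 and 37384 CPM on days 3, 6 and 9, against 11119 CPM on day 0. All 7 muscle markers were at 0 on day 6, and they summed to 4820 and 4519 CPM on days 3 and 9, against 2181 CPM on day 0. Markers of macrophages (5 with a row), adipocytes (4 with a row) and blood (2 with a row) were all highest on day 3 and lowest on day 0. Macrophage markers summed to 404 CPM on day 3, against 155 CPM on day 0. Adipocyte markers summed to 599 CPM on day 3, against 151 CPM on day 0, and blood genes to 759 CPM, against 17.5 CPM. Lep, an adipocyte marker, and Alas2, a blood marker, were at 0 on days 0 and 6. The part of these cell types in the repair values was not tested.

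The first comparison asked which repair genes differed on day 3, after 2 irradiations. Ung was the only member past the rule, and it was lower. Of the 23 members with enough counts, 0 were higher and 1 was lower (4.35%), against 8.54% higher and 7.88% lower among all 5342 genes with enough counts. No member was higher by the rule, and 14 of the 47 members that averaged 10 or more counts had a log2 ratio above 0 while 33 were below. Their median log2 ratio was -0.35, beside -0.01 over 9876 genes with the same minimum.

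On day 6, after the fourth irradiation, 2 members of the replication clamp loader were higher, and 2 glycosylases and a polymerase subunit were lower. Rfc2 and Rfc4 were 2 of 25 members, against 7.48% of all 5296 genes that were higher. Tdg, Ung and Pole3 were 3 of 25, against 13.1% of all genes that were lower. Both shares are close to those of all genes. The median log2 ratio of the 47 members was 0.03, the same as over all genes.

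On day 9, 4 days after the last irradiation, 5 members were lower and 0 of 24 were higher. Pold2, Ung, Fance, Xrcc6bp1 and 1 other made up 20.8% of the members with enough counts, against 10.4% lower among all 5345 genes, while 10.7% of all genes were higher. The median log2 ratio was -0.38, beside 0.00 for all genes, with 33 of 47 below 0. The 3 comparisons share the day 0 library, so a low or high value there enters all of them.

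Between successive later days the direction turned. Day 6 over day 3 had 3 members higher (Pold2, Rfc2 and Rfc4, 12.5% of 24 against 2.88% of all 5101 genes) and 1 lower (Tdg, 4.17% against 6.74%), with a median log2 ratio of 0.21 beside 0.02. Day 9 over day 6 had 2 higher (Pole3 and Tdg, 8.33% of 24 against 10.0% of all 5127 genes) and 4 lower (Pold2, Xrcc6, Xrcc6bp1 and 1 other, 16.7% against 4.37%), with a median of -0.54 beside 0.00. Both comparisons use the day 6 library.

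**Figure D2:**
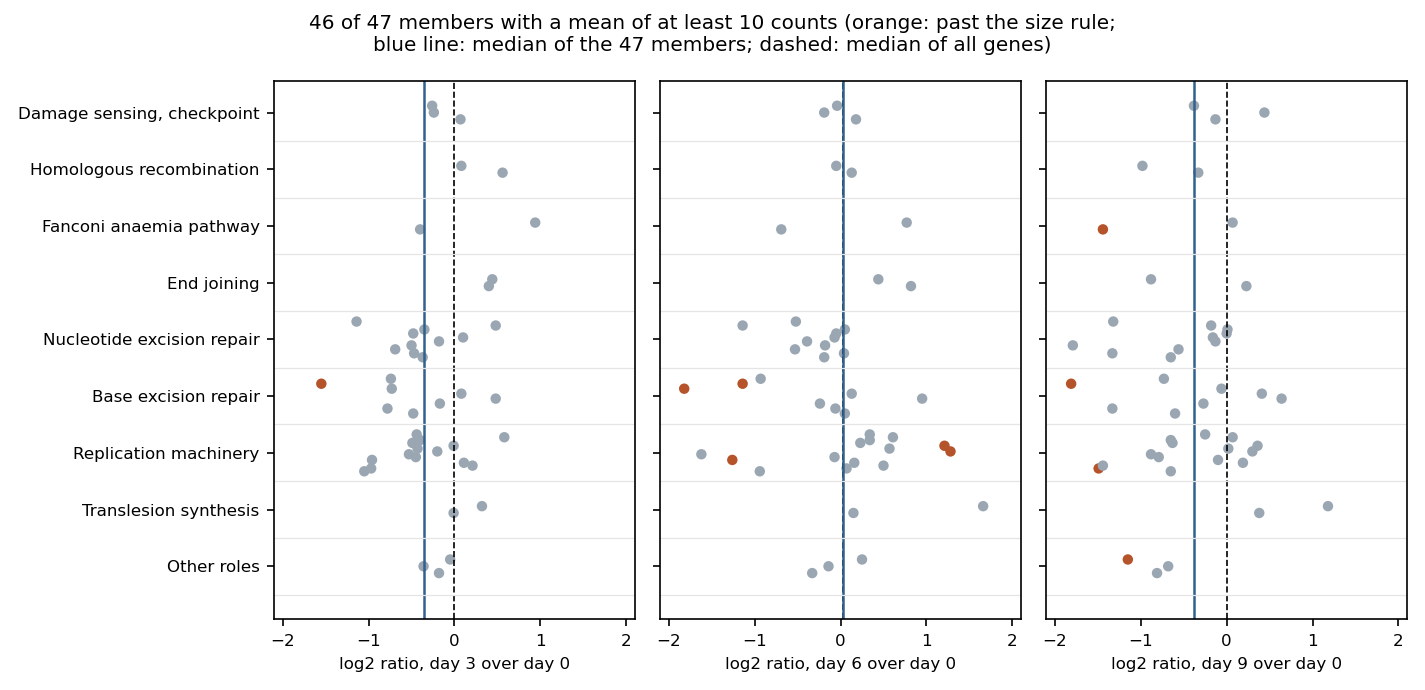
The log2 ratio of days 3, 6 and 9 over day 0 (x axis) for 46 of the 47 members that averaged 10 or more counts, by repair class (rows). Each point is 1 gene, orange where it passed the size rule; the blue line is the median of the 47 members (-0.35, 0.03 and -0.38) and the dashed line the median of all genes.

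Base excision repair, with single-strand break repair, was lower in sum on all 3 later days. Its 10 members summed to 335 CPM on day 0 and to 223, 233 and 248 CPM on days 3, 6 and 9, ratios of 0.666 (0.590 to 0.752), 0.694 (0.615 to 0.783) and 0.739 (0.655 to 0.832). Unlike the sum over all members, this sum did not return to its day 0 level on day 6. Of its 8 members averaging 10 or more counts, 5 were below day 0 on day 6 and 3 above. Their median log2 ratio was -0.15. The lowest of the 8 were Tdg, Ung and Xrcc1, at -1.82, -1.14 and -0.93.

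Ung, the glycosylase that removes uracil from DNA, had 123, 42, 54 and 33 counts on days 0, 3, 6 and 9. All 3 later libraries were low, at 2.92-fold (2.06 to 4.28), 2.20-fold (1.59 to 3.11) and 3.51-fold (2.40 to 5.39) below day 0. In the full tag lists, tags 1 base away from the Ung tag that stood under no gene had 3, 1, 3 and 1 copies, no more on the later days than on day 0.

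Tdg, the thymine DNA glycosylase that acts at mispaired and oxidized methylcytosine, followed another course. It had 114, 69, 31 and 104 counts, low on day 6 and back near day 0 on day 9. Day 6 was 3.53-fold (2.38 to 5.50) below day 0 and 2.13-fold (1.39 to 3.40) below day 3, and day 9 was 3.38-fold (2.27 to 5.29) above day 6. With a prior count of 5 the log2 ratio of day 6 over day 3 was -0.99 and fell just short of the rule.

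Xrcc1, the scaffold of single-strand break repair, had 150, 90, 76 and 86 counts, all later days below day 0 but none past 2-fold: the ratios were 1.67-fold (1.28 to 2.20), 1.91-fold (1.45 to 2.56) and 1.66-fold (1.27 to 2.19) lower. Apex1, which cuts the strand at the site a glycosylase leaves, had 124, 89, 125 and 78 counts. It was level with day 0 on day 6 alone. Parp1, which senses strand breaks, had 28, 25, 23 and 22 counts, and its relative Parp2 had 12, 17, 23 and 18, both too few to show a 2-fold difference by the rule. Ogg1, which removes oxidized guanine, had 14, 8, 13 and 5, the ligase Lig3 11, 8, 4 and 5, and Parp3 2 counts on day 6 alone.

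Polb, the polymerase that fills the gap in base excision repair, had 96, 102, 102 and 122 counts, a total that hid unlike courses of its tags. The 2 main tags of Polb are shown because they lie at different CATG sites.
Polb at the first site from the 3' end: CATGaggtaaaggagtttagc
Polb at site 8 from the 3' end: CATGgactatcgtcaatgaac
The site 8 tag had 30, 45, 50 and 79 copies and was 2.74-fold (1.79 to 4.36) higher on day 9 than on day 0. The tag of the first site had 46, 40, 41 and 29 copies, and its ratio of 0.666 (0.401 to 1.08) does not leave out 1. The gene total on day 9 was 1.33-fold (1.01 to 1.76) above day 0 and not past the rule.

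The replication machinery held the largest class, 16 members, and was low on days 3 and 9 and high on day 6. Its sum was 481, 352, 546 and 333 CPM. Day 3 over day 0 was 0.732 (0.663 to 0.807), day 6 over day 3 was 1.55 (1.41 to 1.71), and day 9 over day 6 was 0.609 (0.551 to 0.673). The most counted member, Pold2, held 225, 115, 230 and 76 of the 964, 709, 1063 and 635 counts of the class. Averaging 10 or more counts were 14 members, of which 11 were below day 0 on day 3 and 10 were above day 0 on day 6.

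Pold2, the accessory subunit of DNA polymerase delta, had 225, 115, 230 and 76 counts. Days 0 and 6 were high and days 3 and 9 low. It was 2.81-fold (2.17 to 3.71) lower on day 9 than on day 0, and 2.96-fold (2.28 to 3.90) lower than on day 6. Day 6 was 2.07-fold (1.65 to 2.61) above day 3, a value that lay at a log2 ratio of 1.00, just under the rule, when library totals alone set the scale, and at 0.90 on the authors' CPM values. Day 3 was 1.96-fold (1.56 to 2.48) below day 0, just outside the rule. The other delta subunits had fewer counts: Pold1, the catalytic one, had 12, 4, 16 and 4, Pold3 had 18, 21, 25 and 6, and Pold4 was level at 47, 51, 51 and 51.

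The clamp loader, replication factor C, places the Pcna clamp on DNA, and its small subunits were highest on day 6. Rfc4 had 45, 45, 102 and 55 counts and was 2.32-fold (1.63 to 3.39) above day 0 on day 6. Rfc2 had 23, 20, 55 and 27 counts, 2.43-fold (1.49 to 4.20) above day 0 on day 6 and 2.80-fold (1.68 to 5.01) above day 3. Rfc2 was then 1.98-fold (1.24 to 3.29) lower on day 9 than on day 6, just outside the rule.

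The other small subunits were also highest on day 6, with smaller differences. Rfc5 had 119, 85, 136 and 73 counts, and Rfc3 had 31, 23, 45 and 30. Rfc1, the large subunit, went the other way on day 6, with 39, 27, 12 and 20 counts. It was 3.07-fold (1.62 to 6.62) lower on day 6 than on day 0 but did not reach 50 counts.

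Polymerase epsilon was seen mainly through its small histone-fold subunits. Pole3 had 72, 37, 29 and 64 counts, low on days 3 and 6 and near day 0 on day 9. It was 2.39-fold (1.55 to 3.85) below day 0 on day 6, and day 9 was 2.23-fold (1.43 to 3.62) above day 6. Through its site 3 tag alone, with 65, 29, 17 and 46 copies, Pole3 would also pass on day 3, 2.23-fold (1.43 to 3.62) lower, while day 9 over day 6 would lack the counts. Its partner Pole4 had another course, with 91, 67, 84 and 50 counts, lowest on day 9. The catalytic subunit Pole had 6, 10, 9 and 2.

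**Figure D3:**
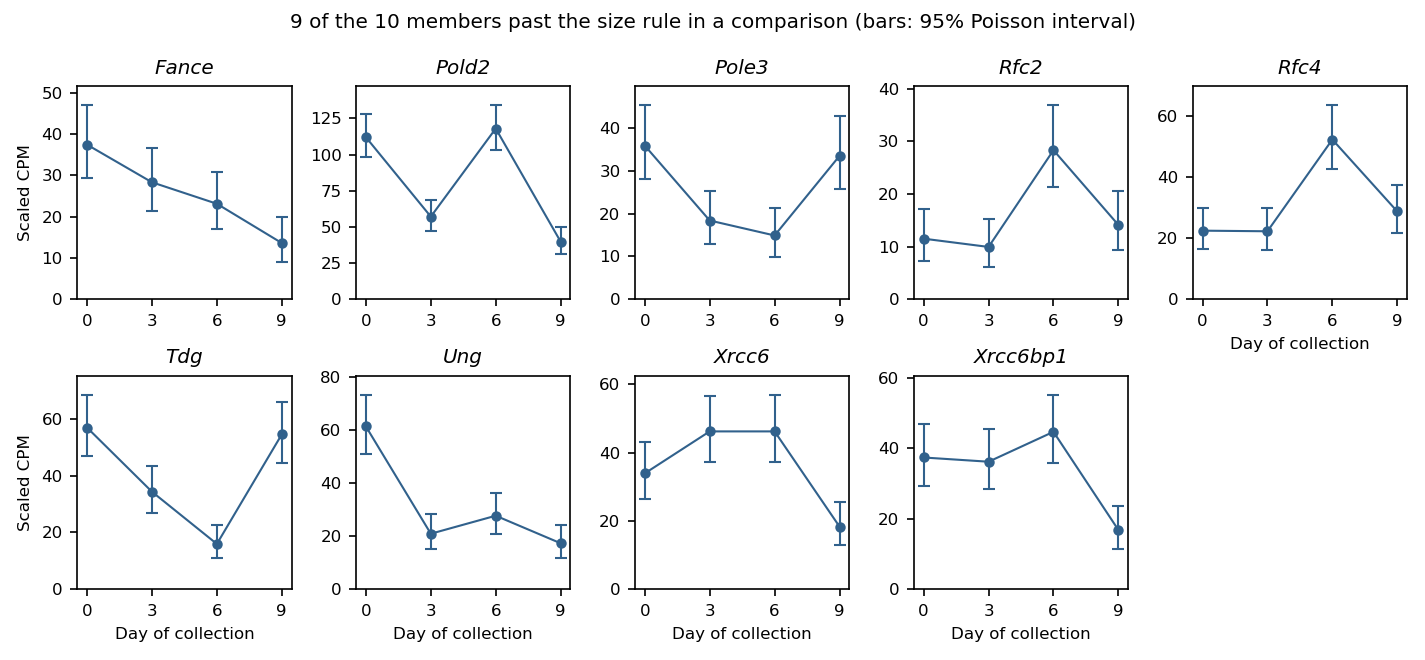
Scaled CPM (y axis, from 0, a separate scale for each gene) by day of collection for 9 of the 10 members past the size rule in any of 5 comparisons. Points are single libraries with 95% Poisson intervals; Pold2 is high on days 0 and 6, Rfc2 and Rfc4 peak on day 6, Tdg is lowest on day 6, and Ung is below day 0 on all later days.

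Replication protein A, which coats single-stranded DNA, had no subunit past the rule. Rpa1 had 66, 50, 81 and 40 counts and Rpa3 had 69, 51, 85 and 55, both highest on day 6. Rpa2, the subunit phosphorylated after damage, had 53, 80, 79 and 53 and was 1.53-fold (1.07 to 2.22) above day 0 on day 6. Lig1, which seals nicks of the lagging strand, had 48, 23, 24 and 29 counts. Lig1 was 2.07-fold (1.25 to 3.61) lower on day 3 than on day 0 and missed the rule by its count.

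The total of Lig1 was made mostly of a pair of tags that differ by 1 base, and the share of each tag differed between libraries. The pair is shown because the total does not show this, and it was chosen after its values were seen. Positions count from 1 at the tag's 5' end, and the differing base is in capitals beside CATG.
Lig1, first tag: CATGGttactattggactggt
Lig1, second tag: CATGCttactattggactggt
The pair differs by G5C. The first tag had 24, 10, 8 and 27 copies and the second had 18, 9, 8 and 0 on days 0, 3, 6 and 9. The first 3 libraries held both tags in near equal number, within wide intervals. The first tag was at 57.1% (41.0 to 72.3) on day 0 and 52.6% (28.9 to 75.6) on day 3. On day 6 it was at 8 of 16 copies (24.7 to 75.3%). The day 9 library held the first tag alone, at 27 of 27 copies (87.2 to 100%). The labels do not say whether the libraries come from the same or different animals.

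**Figure D4:**
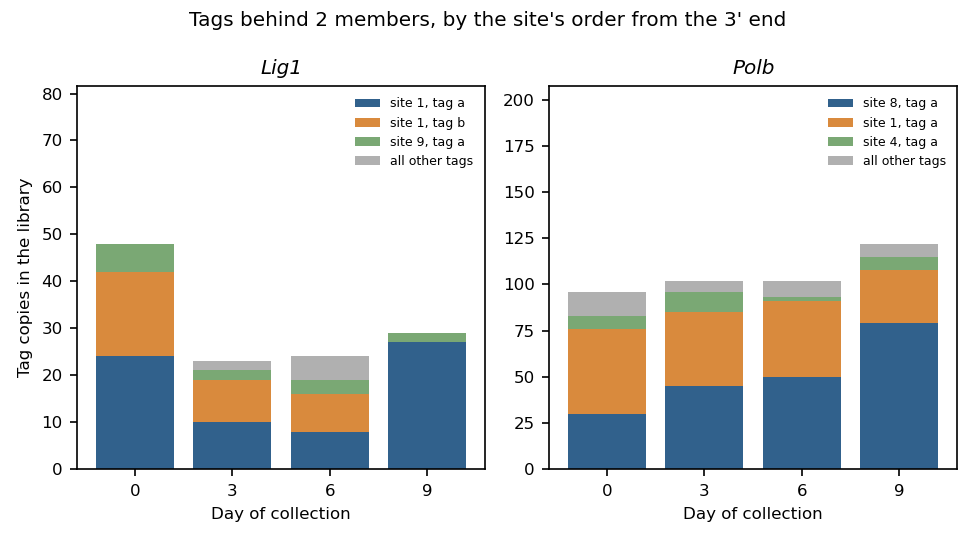
Copies of each tag (stacked bars, y axis from 0) by day of collection for Lig1 and Polb. A site is the order of the CATG site from the 3' end and letters mark different tags of 1 site; for Lig1, tag a of the first site is at 24, 10, 8 and 27 copies and tag b at 18, 9, 8 and 0, and the site 8 tag of Polb is at 30, 45, 50 and 79.

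Of mismatch repair, Msh3, which takes part in recognising larger loops, had 13, 6, 10 and 4 counts, and Mlh3, a MutL homologue, had 4, 11, 7 and 11. Both stayed far under the count floor, and no order of days can be read from so few copies.

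Among genes of end joining, both Ku subunits were above day 0 on days 3 and 6, though neither by the rule. Xrcc6, which encodes Ku70, had 68, 93, 90 and 35 counts and was 2.50-fold (1.69 to 3.84) lower on day 9 than on day 6. Against day 0, Xrcc6 was 1.36-fold higher on day 3 and again on day 6, with intervals that hold 1, and 1.84-fold (1.21 to 2.87) lower on day 9. Xrcc5, which encodes Ku80, had 58, 77, 100 and 65 counts and was 1.77-fold (1.27 to 2.50) above day 0 on day 6. Xrcc5 was also lower on day 9 than on day 6, with a log2 ratio of -0.59, not past the rule. The difference between the partners was not tested. With Xrcc4, the ligase 4 scaffold seen with 2 counts on day 3 alone, the class summed to 62.9, 85.4, 97.6 and 52.4 CPM. Day 6 over day 0 was 1.55 (1.23 to 1.96).

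The Fanconi anaemia pathway, which unhooks crosslinks between strands, was lowest in sum on day 9. Its 7 members summed to 63.9, 55.6, 61.7 and 32.0 CPM, and day 9 over day 0 was 0.502 (0.363 to 0.684). Without its most counted member, Fance, that ratio was 0.696. Fance, a core complex subunit that contacts Fancd2, had 75, 57, 45 and 26 counts, lower at each later day, and was 2.71-fold (1.74 to 4.47) below day 0 on day 9. Fancf, another core subunit, had 21, 41, 35 and 21 counts and was 1.92-fold (1.12 to 3.46) above day 0 on day 3, with too few counts for the rule. Fanca, Fancb, Fancc, Fancg and Fancl had at most 14 counts in a library. Among them Fancc had 10, 2, 2 and 0.

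Nucleotide excision repair had small differences in sum, over many counts. None of its 11 members passed the rule in any comparison, but only 4 reached the count floor and could have passed. With 4 members, 0 past the rule says little beside the shares of all genes, such as 10.4% lower on day 9. Larger differences of members under the floor are given below. The sum was 480, 369, 435 and 379 CPM, with ratios to day 0 of 0.770 (0.699 to 0.849), 0.906 (0.825 to 0.995) and 0.790 (0.716 to 0.871). Of the 10 members averaging 10 or more counts, 8 were below day 0 on each later day. Rad23b, which stabilises the damage sensor Xpc, had 322, 253, 324 and 309 counts. Ddb1, the adaptor that joins the sensor Ddb2 to its ubiquitin ligase, had 353, 274, 300 and 214 and was 1.57-fold (1.32 to 1.87) lower on day 9 than on day 0. Ercc6, the Cockayne syndrome B protein of transcription-coupled repair, had 61, 54, 45 and 53. Of the Ercc6 copies, 82.6% came from a tag at site 12 from the 3' end, and no tag of its first site was seen.

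The damage sensors themselves had few counts. In human cells p53 activates the genes for DDB2 and XPC. Here Ddb2 had 14, 10, 14 and 5 counts and Xpc had 40, 18, 27 and 15. Neither was above day 0 beyond counting error in a later library, and Xpc was 2.20-fold (1.25 to 4.14) lower on day 3 and 2.49-fold (1.37 to 4.95) lower on day 9, short of the count floor. Ercc3, a helicase of the TFIIH complex, had 34, 24, 29 and 9 and was 3.46-fold (1.69 to 8.53) lower on day 9 than on day 0. The second TFIIH helicase, Ercc2, had 42, 26, 28 and 27. Xpa, Ercc5 and Ercc8 stayed at 2 to 17 counts.

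Damage sensing and checkpoint genes had no member with 50 counts. Their sum of 41.9, 37.2, 40.1 and 35.1 CPM differed by less than counting error, with 0.838 (0.598 to 1.17) for day 9 over day 0. Nbn, a subunit of the complex that binds broken ends, was level at 38, 40, 42 and 33 counts, and its partner Rad50 had 18, 15, 17 and 13. The checkpoint clamp loader Rad17 had 13, 11, 11 and 17. The checkpoint kinases were at the edge of detection: Chek1 had 2 counts on days 0 and 6, and Chek2 had 2 on day 9 alone. Mdc1, Mre11a and Rad9b had at most 9 counts. For Nbn the ratio of day 9 over day 0 was 1.09-fold lower (0.670 to 1.80), and the genes with fewer counts have wider intervals.

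Homologous recombination was as sparse, at 25.5, 27.3, 29.8 and 16.8 CPM over 8 members. Day 9 over day 6 was 0.566 (0.353 to 0.881), while day 9 over day 0 was 0.662 (0.410 to 1.04). Rad51d, a recombination factor, had 16, 24, 17 and 12 counts, and Rad52 had 15, 16, 14 and 7. Brca2, a mediator of recombination, had 6, 0, 3 and 4, and Rad51c had 2, 8, 10 and 2. Rad51ap1, Rad54b, Rad54l and Xrcc2 had at most 6 counts in a library. Atm, Atr and Brca1 were not analysed here.

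Translesion synthesis, in which special polymerases copy past damage, was the 1 class whose sum stood above day 0 on both days 6 and 9. It summed to 32, 33, 63 and 52 counts, and day 6 over day 0 was 2.01 (1.30 to 3.21). That rested on Rad18, the ligase that ubiquitinates Pcna to call in these polymerases, with 15, 19, 47 and 33 counts. Rad18 was 3.15-fold (1.77 to 6.21) higher on day 6 and 2.27-fold (1.22 to 4.58) higher on day 9, with 47 counts at most, under the floor of 50. Without Rad18 the class ratio of day 6 over day 0 was 0.971. Polh, which copies past ultraviolet lesions, was level at 12, 12, 13 and 15 counts, and Polk had 5, 2, 3 and 4.

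The remaining 4 members carry a family symbol and were not placed in a repair class here. Xrcc6bp1, whose RefSeq symbol is now Atp23 and which is a mitochondrial peptidase homologue, had 75, 73, 87 and 32 counts. It was level until day 6 and 2.21-fold (1.46 to 3.49) below day 0 on day 9. Rad21, the kleisin subunit of cohesin, had 115, 90, 101 and 68 counts and was 1.61-fold (1.18 to 2.21) lower on day 9 than on day 0. Ercc6l2 had 17, 15, 13 and 9, and Rad54l2 at most 3.

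A further list of 63 repair genes lay outside the symbol rule, and 49 of them had a row. Their sum was 1527, 1267, 1506 and 1255 CPM, with ratios to day 0 of 0.829 (0.787 to 0.874), 0.986 (0.937 to 1.04) and 0.822 (0.778 to 0.867). A single gene, Gtf2h2, held 1284, 953, 1173 and 979 of the 3060, 2551, 2932 and 2395 counts in this sum. The sum therefore leans on that gene and does not give the course of the whole list. By the rule, 1 of 17 was higher and 2 were lower on day 3, against 8.54% and 7.88% of all genes. On day 6, 1 of 16 was higher and 1 lower, against 7.48% and 13.1%. On day 9, 0 of 16 were higher and 1 lower, against 10.7% and 10.4%. Day 6 over day 3 had 2 of 14 higher (H2afx and Pcna) and 0 lower, against 2.88% and 6.74%. Day 9 over day 6 had 0 of 14 higher and the same 2 genes lower, against 10.0% and 4.37%. The gene higher than day 0 was Rev1, a scaffold of translesion polymerases, with 46, 95, 102 and 52 counts. Rev1 was 2.04-fold (1.43 to 2.99) above day 0 on day 3 and 2.27-fold (1.60 to 3.31) on day 6. Recql, a DNA helicase, had 81, 38, 26 and 39 and was 2.99-fold (1.92 to 4.91) lower on day 6. H2afx, the histone variant phosphorylated around breaks, had 65, 21, 61 and 27, low on days 3 and 9 alone. Pcna, the sliding clamp that the clamp loader places, had 186, 137, 270 and 118, with day 6 2.04-fold (1.65 to 2.52) above day 3.

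Among the 16 proliferation genes, 5 of 8 were lower on day 3 than on day 0 and 0 were higher. Over all genes, 7.88% were lower and 8.54% higher. On day 6, 1 of 10 was higher (Cdk1) and 1 was lower (Mcm4), against 7.48% and 13.1% of all genes. Both day 6 shares are close to those of all genes. On day 9, 4 of 9 were lower and 0 higher, against 10.4% and 10.7%. Day 6 over day 3 had 6 of 9 higher and 0 lower, against 2.88% and 6.74%. Day 9 over day 6 had 6 of 10 lower and 0 higher, against 4.37% and 10.0%. Stmn1, a microtubule regulator of dividing cells, had 166, 28, 148 and 37 counts, the same high and low days as Pold2 and H2afx. Cdk1, the mitotic kinase, had 88, 37, 174 and 78 counts, highest on day 6 like Rfc2, Rfc4 and Pcna. Mcm4, a subunit of the replicative helicase, had 104, 13, 31 and 51 counts, low on all later days like Ung, Xrcc1 and Recql. That course was not typical of the list: of its 15 genes averaging 10 or more counts, 12 were above day 0 on day 6 and 3 below.

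The position of the counted tags also differed between libraries. Of all member copies, 85.1% (83.8 to 86.3), 82.7% (81.2 to 84.1), 85.8% (84.5 to 87.0) and 78.5% (76.7 to 80.1) lay at the first CATG site on days 0, 3, 6 and 9. Over all genes the share was 72.9 to 74.2% and not lowest on day 9. Pold2, Ung and Xrcc6, counted at the first site, were lower on day 9 than on day 0. In sum, member copies at the first site were 2876 on day 0 and 1810 on day 9, of 3380 and 2307 at all sites. Single first-site tags that were not lower on day 9 included those of Rfc4, Xrcc5 and Pold4. They had 43, 56 and 47 copies on day 0 and 55, 63 and 51 on day 9. Their ratios, 1.34 (0.885 to 2.05), 1.18 (0.811 to 1.72) and 1.14 (0.751 to 1.73), do not leave out 1. They do not stand for first-site tags as a whole, whose sum was lower. The part of tag position in the day 9 values was not tested. All 173 member tags stood under 1 gene each.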

How the data were processed

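Digital gene expression tags of 21 bases were deposited for 4 libraries, 1 for each day. Per the file headers, the authors gave whole-number counts per gene beside the copies of each tag, and 0 rows departed from the sum of their tags. The deposited column headed TPM held CPM by the values, relative to all tags seen at least 2 times, within 0.005. The submitters' processing notes name Rnor 6.0; the aligner is not given in the sources used here, and whether the counting used strand is not stated. All sequences printed are tags of the deposited tables. Of the 73 members, RefSeq (GRCr8) gives another symbol for Xrcc6bp1 and Mre11a.

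Libraries were scaled by TMM (edgeR 4.0.16), with factors of 0.978 to 1.02. Ratios used a prior count of 0.5, medians needed a mean of at least 10 counts and at least 5 genes, and summed counts have exact Poisson intervals. No test across samples was made. The size rule was run on all 18957 rows and tested on simulated data. The simulated differences lay in genes with many counts and had counting error alone. The simulation therefore does not cover members with few counts or spread between animals. Members and lists were chosen with earlier results of these data known. Named were members past the rule, the 2 most counted in each class, members whose main tag has at least 30 copies in a library and at most 5% of the gene in another, repair genes outside the rule that passed it, and a fixed set (Atm, Atr and Brca1, not analysed here, and Chek1, Brca2, Xrcc5, Xrcc6, Parp1, Ddb2, Xpc, Polh, Polk); the other members are given for completeness. Values of a few members and tags are not reported here. Alternatives covered DESeq2 1.42.0 size factors, other scalings, count floors, the fold, the prior count and single tags. Leaving out tags with 8 A in a row was chosen after seeing the data.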

Additional observations from a re-analysis of the deposited data

How the results depend on the processing

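No paired analysis was possible because each day has 1 library, and for the same reason no replicate could be left out. The counts of members past the rule (0 higher and 1 lower on day 3, 2 and 3 on day 6, 0 and 5 on day 9, each against day 0; 3 and 1 for day 6 over day 3; 2 and 4 for day 9 over day 6) depended on the count floor and the fold. With a floor of 10 there were 4 lower on day 3, 4 higher and 5 lower on day 6, 1 higher and 9 lower on day 9, 6 higher and 3 lower for day 6 over day 3, and 9 lower for day 9 over day 6. With no floor these were 5 lower, 4 higher and 5 lower, 1 higher and 9 lower, 7 higher and 3 lower, and 10 lower. With a floor of 200 there were 0 lower on day 3, 0 higher and 0 lower on day 6, 1 lower on day 9, 1 higher and 0 lower for day 6 over day 3, and 0 higher and 1 lower for day 9 over day 6. At 1.5-fold there were 6 lower on day 3, 4 higher and 5 lower on day 6, 13 lower on day 9, 7 higher for day 6 over day 3 and 13 lower for day 9 over day 6. Through the most abundant tag alone there were 1 higher and 2 lower on day 3, 1 higher on day 9 and 1 higher for day 9 over day 6. The shares of all genes past the rule were not computed under these alternatives. A larger count of members at a looser setting is therefore not a result about the members.

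The median log2 ratio of members on day 3 was -0.24 with the authors' value plus 1. On day 9 it was -0.61 with a mean of at least 50 counts, -0.58 with no minimum and -0.28 with a prior count of 5. Day 6 over day 3 gave 0.34 with a mean of at least 50 counts and 0.08 with the authors' value, and day 9 over day 6 gave -0.65 through the most abundant tag. The ratios of the sum over all members stayed within their intervals under the 3 alternatives run for each: library totals alone, DESeq2 size factors and leaving out the most abundant member. Among role classes 1 ratio changed direction, translesion synthesis on day 6 at 0.971 without Rad18. A further 13 class ratios moved outside their interval and 121 did not, and the 13 all came from leaving out the most abundant member of a class. Of the class medians, 21 moved by over 0.1 and 109 did not. Among log2 ratios of single named members under alternatives, 949 kept their side of the rule, 6 lost it, 5 gained it and none past it changed direction. The cause of these shifts was not tested beyond what each alternative removes. Depth limits the calls, since 48 of 73 members never reach the count floor.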
